A study of Mus musculus with 14 samples.

Results

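The endothelial, arterial and venous genes of the coronary vessels were described with 10 genes: Pecam1, Cdh5, Cldn5, Emcn, Apln, Aplnr, Gja4, Gja5, Dll4 and Nr2f2. They were taken by name from the table of 15894 genes, and all 10 were found under 1 identifier each. Mouse hearts at E16.5 gave the RNA, from epicardium with subepicardium dissected off the ventral or the dorsal side, with 2 hearts of one genotype and sex in each pool and no treatment. There were 3 female ventral and 3 female dorsal libraries (pools 1 to 3), 4 male ventral libraries (pools 4 to 7) and 3 male dorsal libraries (pools 4 to 6). The labels give Tbx18Cre, in which Cre is driven by a gene active in the epicardium, as the genotype of every library, while the paper names them wild type. The same genotype was therefore carried by all groups and no group without it was compared. A further male library, numbered 7, is dorsal by its title and ventral by its tissue field, so its values are given but it entered no main regional test.

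At this stage of mouse development the coronary plexus has been remodelled into arteries, capillaries and veins. Endothelial cells of every kind hold together through the junction proteins Cdh5 (VE-cadherin), Cldn5 (claudin 5) and Pecam1 (CD31). Arterial cells switch on Notch signalling, with its ligand Dll4, and the connexins Gja4 (connexin 37) and Gja5 (connexin 40), while the nuclear receptor Nr2f2 (COUP-TFII) keeps veins venous. The peptide Apln is made by sprouting endothelium and its receptor Aplnr by venous and immature coronary endothelium. The sialomucin Emcn (endomucin) coats veins and capillaries. Several of these genes are not endothelial alone: Gja5 is also a gap junction gene of atrial cardiomyocytes and of the conduction system, and Nr2f2 is made by lymphatic, mesenchymal and atrial cells as well.

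The deposited values are normalized CPM, read counts scaled to the size of the library, from libraries with 13.9 to 25.2 M reads on the listed genes, in which 3 reads correspond to 0.135 to 0.253 normalized CPM. The member with the fewest reads, Dll4, had at least 22 reads in every library, so no member was near the floor of detection. All 10 epicardial marker genes were listed, and their summed level was 1739 to 2841 normalized CPM in female ventral, 283 to 635.9 in female dorsal, 1996 to 6075 in male ventral and 1616 to 4300 in male dorsal libraries. Ventricular cardiomyocyte markers were present in every library. Their sums were 22172 to 32384 normalized CPM in female ventral and 31699 to 45921 in female dorsal libraries. In male libraries they were 17546 to 34503 ventrally and 36370 to 46805 dorsally, without overlap. The part of these cells in the values of the members was not tested. In such bulk tissue fewer endothelial cells and less RNA per endothelial cell cannot be told apart. Each p-value of a main fit measures the spread between libraries, and no main fit had a term for the pool.

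One library stood apart for the endothelial genes. Male ventral 7 held the lowest value of all 14 libraries for 6 of the 10 members (Pecam1, Cdh5, Cldn5, Emcn, Aplnr and Dll4), and it was the lowest library for 8.51% of all listed genes. Its Pecam1 was 12.4 normalized CPM (292 reads), where the other 13 libraries lay between 54.9 and 165.6. Its Cldn5 was 4.19, against 57.5 to 83.2 in male ventral 4 to 6, whose mean was 16.2 times as high. The mean of those libraries was 13.4 times as high for Aplnr, 8.06 times for Cdh5 and 7.41 times for Emcn, but 2.29 times for Gja5 and 1.46 times for Nr2f2. Of 14 further pan-endothelial genes, 13 were lowest in this library, among them the vessel receptor genes Robo4 (0.362 normalized CPM, against 7.01 to 17.6 elsewhere) and Kdr (19.97, against 69.9 to 136.5), while Tek was at 118.7 within a range of 47.5 to 144.8. The same library had the highest sum of the epicardial markers (6075) and of 4 erythroid markers (293.3, against 37.6 to 125.4 elsewhere), and it was the lowest of the 14 for 8 of 10 ventricular cardiomyocyte markers. The part of these in the endothelial values was not tested, and the male regional change of each member is given with and without this library.

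**Figure D1:**
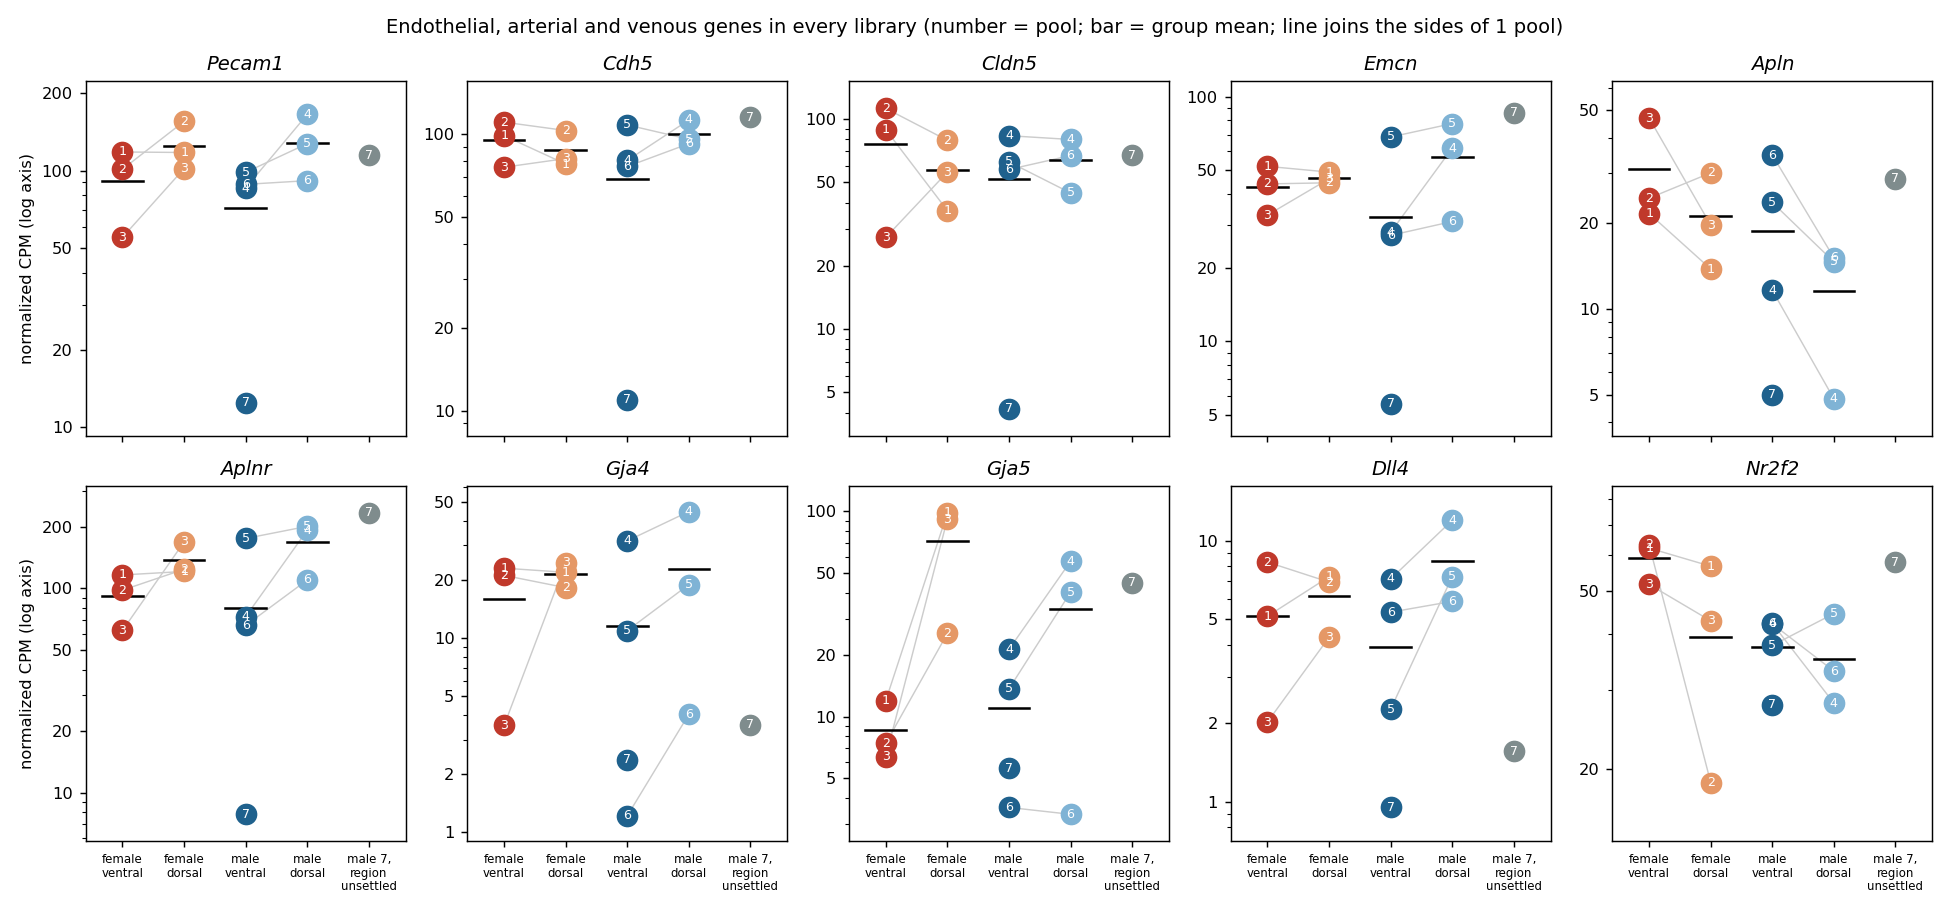
Normalized CPM (log axis) of the 10 genes in every library, by sex and region, with the pool number in each point, a bar at the group mean and a line joining both sides of 1 pool. Male ventral 7 lies far below the other libraries for Pecam1, Cdh5, Cldn5, Emcn and Aplnr, and Gja5 is higher in all 3 female dorsal libraries than in any female ventral one.

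Per kilobase of annotated exon, Cldn5 had the highest median over the 14 libraries (45.7 normalized CPM per kb, range 2.96 to 79.2), followed by Aplnr (32.1), Cdh5 (22.4) and Pecam1 (16.3). Gja4 (10.98), Emcn (8.37), Apln (6.58) and Nr2f2 (4.93) came next, and Gja5 (3.04) and Dll4 (1.45) were lowest. The order was not fixed from library to library. Cldn5 exceeded Aplnr in 9 of 14 libraries, Gja4 exceeded Emcn in 8, Apln exceeded Nr2f2 in 8 and Nr2f2 exceeded Gja5 in 8, so these neighbours did not differ beyond their spread. Pecam1 stood above Gja4 in 13 libraries and Cdh5 above Pecam1 in 12. Gja5 ranged from 0.582 to 17.1 and Gja4 from 0.722 to 26.6 normalized CPM per kb.

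The pan-endothelial members Cdh5, Cldn5 and Pecam1 were not called in female hearts. Cdh5 (chromosome 8 of GRCm38, 104101625 to 104144511, plus strand, a protein-coding gene like all 10 members) measured 98.8, 110.6 and 76.0 normalized CPM in female ventral 1 to 3 and 78.0, 103.1 and 81.7 in female dorsal 1 to 3. The groups overlapped, and the log2 change, ventral minus dorsal on log2(normalized CPM + 1), was 0.11 (SE 0.176, limma, adjusted p = 0.67). Cldn5 (chromosome 16, 18776847 to 18778262, plus strand, a single exon) ranged from 27.3 to 112.2 in female ventral and from 36.6 to 79.1 in female dorsal libraries. It was highest in ventral 2 and lowest in ventral 3, so the spread within the ventral group was wider than the distance between the sides (log2 change 0.25, SE 0.461, adjusted p = 0.719). Pecam1 (chromosome 11, 106654217 to 106750628, minus strand) was at 118.2, 101.2 and 54.9 ventrally and at 117.7, 155.6 and 101.8 dorsally. Its ventral mean was the lower one, 91.4 ± 32.8 (SD, n = 3) against 125.0 ± 27.6 (n = 3), and the log2 change was -0.50 (SE 0.269, adjusted p = 0.196).

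In male hearts, the same 3 genes were lower in ventral libraries on average, and the size of the difference changed with the library numbered 7. Pecam1 was at 85.5, 98.4, 88.3 and 12.4 in male ventral 4 to 7 and at 165.6, 127.4 and 91.3 in male dorsal 4 to 6. Male ventral 5 exceeded male dorsal 6, so the groups overlapped even though the ventral mean was 71.2 ± 39.5 (SD, n = 4) and the dorsal mean 128.1 ± 37.2 (n = 3). The log2 change was -1.15 (SE 0.607, adjusted p = 0.416) with all 7 libraries and -0.45 (SE 0.21, adjusted p = 0.518) without male ventral 7. For Cdh5 it was -0.91 (SE 0.622) and -0.19 (SE 0.176). For Cldn5 the direction turned, from -0.82 (SE 0.802) to 0.11 (SE 0.237). Neither gene was called with or without the library.

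Among the arterial genes, Gja5 differed between the sides in female hearts. Gja5 (chromosome 3, 96904693 to 97077416, plus strand) was at 11.97, 7.41 and 6.36 normalized CPM in female ventral 1 to 3 and at 98.1, 25.4 and 91.6 in female dorsal 1 to 3. Every dorsal library exceeded every ventral one, with means of 8.58 ± 2.98 (SD, n = 3) ventrally and 71.7 ± 40.2 (n = 3) dorsally. The log2 change was -2.74 (SE 0.459, limma, adjusted p = 0.00305), and this was the one member called in female hearts. Over all genes tested, 27.8% were called in either direction and 13.3% were called higher dorsally, so 1 call among 10 members is no more than the table as a whole gave. Gja5 remained past the threshold in all 14 alternative fits of the female libraries, with adjusted p between 0.000248 and 0.0191. Without female dorsal 1 the change was -2.41 (SE 0.489, adjusted p = 0.0107).

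Atrial markers moved with some of these libraries, and their part in the Gja5 difference was not tested. Of the 6 atrial markers 5 were listed, and their sum was 12476, 2026 and 508.4 normalized CPM in female dorsal 1 to 3, against 778.6 to 1395 in female ventral libraries. Female dorsal 1 had the highest sum of the 14 libraries, with Myl7, an atrial myosin light chain, at 7228. Female dorsal 3 had nearly the same Gja5 (91.6) with a sum below that of every female ventral library and Myl7 at 228.1. Nppa, the atrial peptide gene, went the other way there. It was at 2775, 1008 and 116.5 in female dorsal 1 to 3, all above the 33.2 to 51.7 of the female ventral libraries (-3.93, SE 0.876, adjusted p = 0.0101). Of 3 conduction system markers only Hcn4, the pacemaker channel gene, was listed, at 12.49 in female dorsal 1 and between 0.0817 and 2.63 in the other libraries. In counting, 12.9% of the 60-base windows of Gja5 transcripts also occur in Zfp697 and 1.85% in Gpr89, which lies on the opposite strand. Gpr89 was at 15.3 to 20.1 in female ventral and 21.3 to 27.9 in female dorsal libraries, and Zfp697 at 7.19 to 14.6 and 3.08 to 10.7, so the Gja5 value is uncertain as far as reads were divided among them.

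The reference promoters of both arterial connexins are shown because Gja5 was called by side in female hearts and Gja4, its partner in arterial endothelium, was not. The change of Gja4 had the same direction (-0.74 in female and -1.18 in male hearts), and the changes of the 2 genes were not compared by a test. The windows are the 250 bases before the RefSeq start on GRCm38.p6, Gja5 at chr3:97032152-97032401 on the plus strand and Gja4 at chr4:127314040-127314289 on the minus strand. The Gja5 window lies within the annotated span of the gene, which begins at 96904693, so that earlier start has no window here. The Gja4 window directly precedes the annotated gene. Capitals mark AGGAAG or its reverse complement CTTCCT, a sequence with the core bound by ETS factors, which act widely in endothelium. The shorter core itself, GGAA or TTCC, also occurs unmarked in both windows, so a window without capitals does not lack it.
Gja5: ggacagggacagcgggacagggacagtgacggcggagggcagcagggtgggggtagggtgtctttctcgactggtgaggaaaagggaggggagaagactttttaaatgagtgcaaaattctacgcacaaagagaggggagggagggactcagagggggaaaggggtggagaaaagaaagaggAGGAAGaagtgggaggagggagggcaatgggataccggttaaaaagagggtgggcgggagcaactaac
Gja4: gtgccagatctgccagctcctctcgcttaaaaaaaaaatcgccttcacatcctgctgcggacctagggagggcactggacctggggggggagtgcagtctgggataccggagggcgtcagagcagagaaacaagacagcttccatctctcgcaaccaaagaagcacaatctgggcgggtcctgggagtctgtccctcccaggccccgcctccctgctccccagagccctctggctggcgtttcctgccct
Windows were on hand for 7 of the 10 members. The motif was found on either strand in 4 of the 7 (Gja5 once, Nr2f2 once, Apln once and Emcn in 2 places), and in 29.5% of 32851 promoter windows of this length. The sequence GATAAG, read by zinc finger factors of the heart, occurred in 6.55% of all windows. The T-box core GGTGTG occurred in 16.3%. Neither was found in any of the 7, reading both strands. The bases before the start were 56.4% G or C for Gja5 and 61.2% for Gja4. Such matches describe letters in a window and are not evidence of binding.

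Male libraries had the same direction for Gja5 with a wide spread. It was at 21.3, 13.6, 3.61 and 5.59 in male ventral 4 to 7 and at 57.0, 40.3 and 3.34 in male dorsal 4 to 6, and the library of unsettled region was at 44.9. Dorsal pools 4 and 5 were above every male ventral library, and dorsal pool 6 was below them all. The log2 change was -1.13 (SE 0.841, adjusted p = 0.553), and without male ventral 7 it was -0.93 (SE 0.896). With both sexes in one fit and sex as a covariate the change was -1.88 (SE 0.583, adjusted p = 0.0358), the one member called there, against 18.9% of all genes called and 9.06% called higher dorsally. This call was lost in 10 of 13 fits that left out a library (adjusted p from 0.00524 to 0.0809 over the 13), among them the fit without male ventral 7 (-1.84, adjusted p = 0.0564), and was kept without male ventral 4, male ventral 5 or male dorsal 6. It was also lost when the unsettled library counted as ventral (-1.60, adjusted p = 0.0889). With the pool number as a block it stood at -1.84 (SE 0.385, adjusted p = 0.0227), and without male dorsal 6 at -2.53 (adjusted p = 0.00524).

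Gja4 and Dll4 were not called in any comparison. Gja4 (chromosome 4, 127311421 to 127314039, minus strand) was at 22.9, 21.0 and 3.55 normalized CPM in female ventral and at 21.8, 18.2 and 24.3 in female dorsal 1 to 3. Ventral 3 alone was low, and the change of -0.74 (SE 0.538, adjusted p = 0.335) became 0.04 without it. In male hearts the pools differed widely. Gja4 was high on both sides of pool 4 (31.6 ventrally, 44.8 dorsally), intermediate in pool 5 (10.9 and 18.8) and low in pool 6 (1.22 and 4.05), where Gja5 was low as well (3.61 and 3.34). The male change of Gja4 was -1.18 (SE 0.944, adjusted p = 0.583), and -0.80 (SE 0.968) without male ventral 7. Dll4 (chromosome 2, 119325784 to 119335962, plus strand) had the lowest level of the 10, from 2.02 to 8.28 in female ventral, 4.27 to 7.27 in female dorsal, 0.957 to 7.13 in male ventral and 5.86 to 11.97 in male dorsal libraries. The log2 change of Dll4 was -0.34 (SE 0.422) in female and -1.08 (SE 0.497, adjusted p = 0.368) in male hearts, and the male change was -0.71 (SE 0.431, adjusted p = 0.598) without male ventral 7, the library with the lowest Dll4. Of its transcript windows, 4.08% also occur in Gm14207 on the opposite strand.

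The apelin ligand and its receptor lay in opposite directions. Aplnr (chromosome 2, 85136225 to 85139923, plus strand) was at 116.4, 98.0 and 62.2 normalized CPM in female ventral 1 to 3 and at 121.1, 124.1 and 168.8 in female dorsal 1 to 3. The dorsal libraries all exceeded the ventral ones, as those of 44.8% of all tested genes did in one direction or the other, and with Gja5 it was 1 of 2 such members. Its log2 change of -0.61 (SE 0.229, adjusted p = 0.0751) missed the threshold, although it was past it without female ventral 1 (adjusted p = 0.0327). In male hearts Aplnr was at 72.7, 175.6, 65.8 and 7.81 ventrally and at 192.8, 201.3 and 110.0 dorsally. Male ventral 5 was above male dorsal 6, so the groups overlapped (-1.63, SE 0.789, adjusted p = 0.386; without male ventral 7 -0.77, SE 0.36, adjusted p = 0.518).

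Apln (chromosome X, 48025146 to 48034853, minus strand) was at 21.7, 24.5 and 47.0 in female ventral and at 13.8, 30.1 and 19.7 in female dorsal libraries. Male ventral 4 to 7 had 11.6, 23.7, 34.8 and 4.998, and male dorsal 4 to 6 had 4.83, 14.7 and 15.1. The log2 change was 0.51 (SE 0.335, adjusted p = 0.281) in female and 0.50 (SE 0.589, adjusted p = 0.718) in male hearts, the latter becoming 0.97 (SE 0.478, adjusted p = 0.533) without male ventral 7. The ventral library was the higher one in 5 of the 6 pools with both sides, all but pool 2, whereas Aplnr was lower ventrally in 6 of 6. In the fit of both sexes neither gene was called (Apln 0.51, SE 0.38, adjusted p = 0.365; Aplnr -1.15, SE 0.495, adjusted p = 0.111). With the pool number as a block, which compares the sides within each pool, both were past the threshold: Apln 0.74 (SE 0.214, adjusted p = 0.0428) and Aplnr -0.69 (SE 0.191, adjusted p = 0.0381). That fit called 3 of the 10 members, the third being Gja5, and 14.2% of all genes. Male ventral 7 has no settled partner and so does not bear on the blocked changes.

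Emcn and Nr2f2, which are marked in veins, were not called in any main fit. Emcn (chromosome 3, 137341067 to 137432185, plus strand) was at 51.9, 44.0 and 32.8 normalized CPM in female ventral and at 49.2, 44.5 and 46.1 in female dorsal libraries, with a log2 change of -0.14 (SE 0.185, adjusted p = 0.606). Male pool 5 was high on both sides (68.4 ventrally, 77.6 dorsally), male pool 6 low on both (27.1 and 30.9), and male pool 4 differed between them (27.9 and 61.6). The male change was -1.13 (SE 0.648) and without male ventral 7 it was -0.49 (SE 0.402). Nr2f2 (chromosome 7, 70351944 to 70366735, minus strand) was at 62.2, 63.3 and 51.6 in female ventral 1 to 3 and at 56.7, 18.7 and 42.8 in female dorsal 1 to 3. Only dorsal 2 stood well below the rest, and dorsal 1 lay within the ventral range (0.70, SE 0.332, adjusted p = 0.143; past the threshold without female dorsal 1, 1.03, adjusted p = 0.0419). In male hearts it ranged from 27.9 to 42.3 ventrally and from 28.1 to 44.5 dorsally (0.10, SE 0.216, adjusted p = 0.866; without male ventral 7 0.23, SE 0.209, adjusted p = 0.731). Of the 10 members Nr2f2 had the smallest ratio between the other male ventral libraries and male ventral 7. Of its windows 6.8% occur in B130024G19Rik on the opposite strand.

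Markers of other cell types differed by side in the female libraries, and their part in the values of the members was not tested. Over all genes tested there, limma called 14.5% higher ventrally and 13.3% higher dorsally. All 10 epicardial markers were called higher ventrally by limma and by edgeR, and their sums did not overlap (1739 to 2841 ventrally, 283 to 635.9 dorsally). Of 8 fibroblast markers 6 were called higher ventrally, with sums of 11843 to 22420 against 2988 to 4839, and edgeR called 4. Of 6 lymphatic endothelial markers, 1 of them listed under 2 identifiers, 4 were called higher ventrally and 3 by edgeR, with sums of 406.3 to 2124 against 149.0 to 328.1. The smooth muscle and pericyte list was mixed, with 2 of 8 called higher ventrally and 3 higher dorsally, and 1 and 2 by edgeR. None of 8 fibroblast or 10 epicardial markers was called in male hearts by limma, where 0% of genes were called. An unadjusted p under 0.05 was found there for 2 and 1 of them, against 14% of all genes tested. The quasi-likelihood test of edgeR also called 0 genes there.

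**Figure D2:**
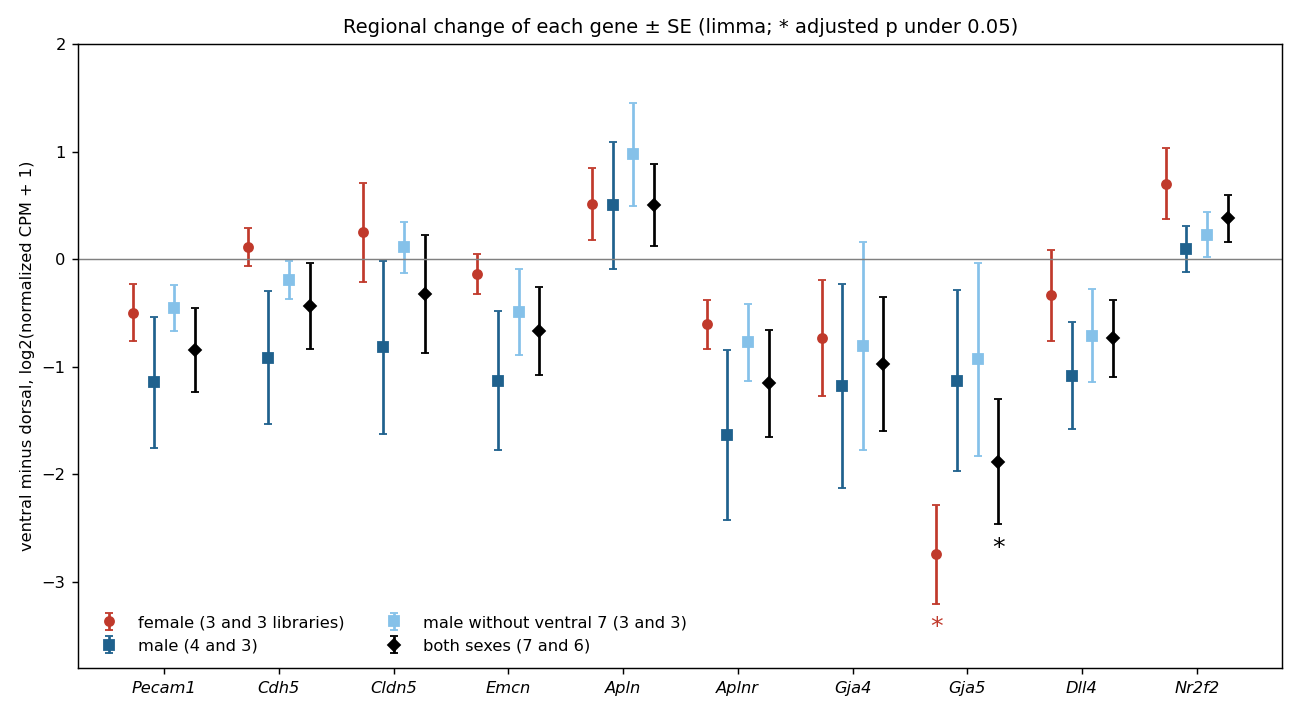
Ventral minus dorsal change of log2(normalized CPM + 1) for each gene, with its SE (limma), in female hearts, in male hearts with and without ventral 7, and in both sexes. Gja5 in female hearts (-2.74) and in both sexes (-1.88) are the points past the threshold, and Apln and Nr2f2 are the genes above 0 in every fit shown.

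By count, 6 of the 10 members lay below 0 in female and 8 in male hearts, with medians of -0.24 and -1.11. Over all genes tested, 50.7% of changes were above 0 in female and 52.9% in male hearts, with medians of 0.01 and 0.03. Without male ventral 7 the male median of the members was -0.47, with 7 of 10 below 0. In male hearts limma called 0 of 10 members and edgeR 0, and 0 members and 2083 of 14917 genes had an unadjusted p under 0.05. No member had male libraries that did not overlap by side, against 14% of genes tested. With the female change set against the male one, 0 members were called by limma and 0 by edgeR. By limma 2.73% of all genes were called. An unadjusted p under 0.05 was found for 0 members and for 15.4% of all genes. For Gja5 the male change minus the female one was 1.62 on the log2 scale, with an interval that spans 0 (SE 1.12, 95% interval -0.79 to 4.02, adjusted p = 0.533).

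Males and females were also compared with the region as a covariate, and no member was called by limma or edgeR (10.9% of all genes were by limma). The titles of the male libraries differ in form from those of the female ones, and some sample numbers occur in both sets. Sex therefore cannot be told apart from any other difference between these sets, here or in the sex difference of the regional change. Both sides of a pool entered this fit as separate libraries, so its p-values do not measure the spread between pools of one sex. Of the members Apln alone had an unadjusted p under 0.05, against 25.6% of all genes tested. All 10 changes, male minus female, lay below 0, with a median of -0.36. Without male ventral 7, 6 of the 10 lay above 0 and the median was 0.02, so this direction rested on that library. Apln had the largest sex change, at -0.91 (SE 0.38, unadjusted p = 0.0301, adjusted p = 0.142). Its means were 31.1 ± 13.8 (SD, n = 3) in female ventral, 21.2 ± 8.25 (n = 3) in female dorsal, 18.8 ± 13.2 (n = 4) in male ventral and 11.5 ± 5.82 (n = 3) in male dorsal libraries, and without male ventral 7 its change was -0.67 (SE 0.324, adjusted p = 0.231).

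Each member was also expressed relative to the mean log2 value of Pecam1, Cdh5 and Cldn5 of the same library, as a description with no test. That reference itself was 5.63 to 6.77 in female ventral, 6.14 to 6.77 in female dorsal, 6.37 to 6.85 in male dorsal and 3.23 to 6.46 in male ventral libraries, the lowest being male ventral 7. On this scale Gja5 still did not overlap in female hearts, at -3.69 to -2.75 ventrally and -2.05 to 0.49 dorsally. It overlapped in male hearts, at -4.004 to -0.51 and -4.27 to -0.99. Aplnr was at -0.14 to 0.35 in female ventral and at 0.19 to 1.11 in female dorsal libraries, and now overlapped. Apln was at -2.17 to -0.05 in female ventral and -2.25 to -1.81 in female dorsal libraries, and at -2.73 to -0.65 in male ventral and -4.30 to -2.37 in male dorsal ones. Nr2f2 relative to the reference was highest in male ventral 7 (1.62), where the reference was lowest.

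**Figure D3:**
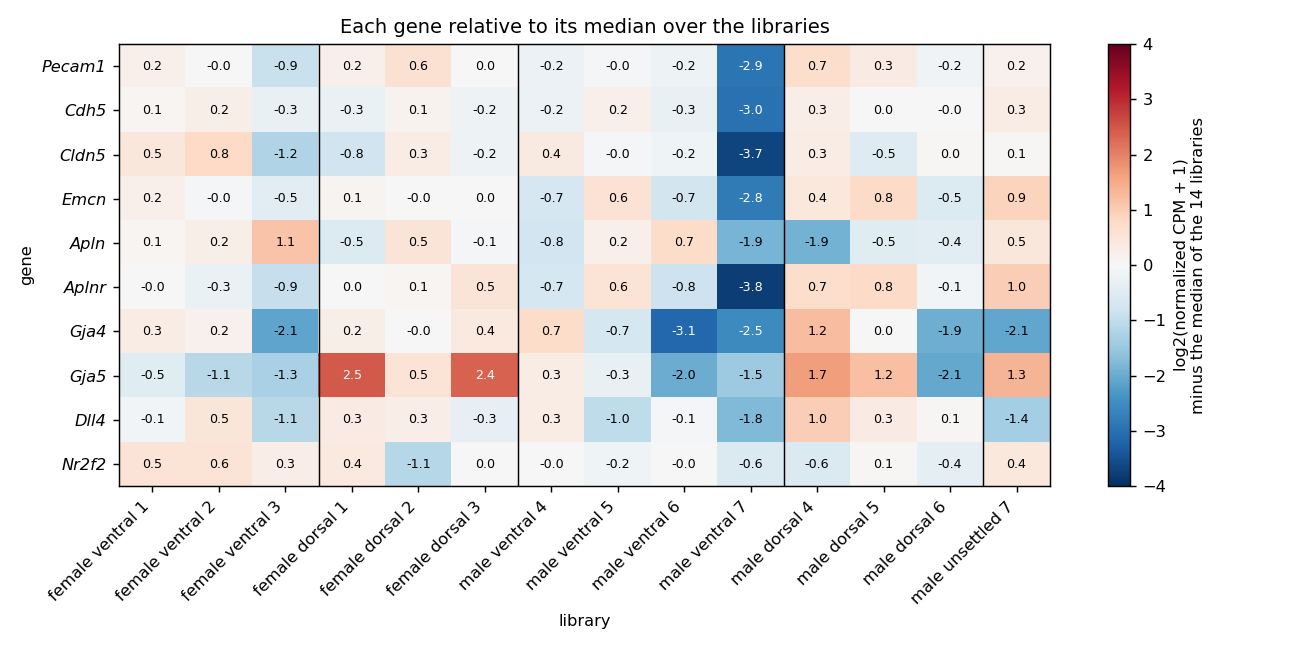
log2(normalized CPM + 1) of each gene in each library minus that gene's median over the 14 libraries, with vertical lines between groups. Male ventral 7 is negative for all 10 genes, and Gja4 is low in female ventral 3, male ventral 6 and 7, male dorsal 6 and the library of unsettled region.

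Of 13 further arterial genes 11 could be tested in female hearts, and limma called 2 higher dorsally, where it called 13.3% of all genes, and 0 higher ventrally. By edgeR 1 was called. The 2 were Sox17 and Hey1, both transcription factor genes of arterial endothelium, Hey1 being a Notch target. Sox17 was at 12.8, 3.72 and 3.20 normalized CPM in female ventral and at 19.8, 30.7 and 31.5 in female dorsal libraries, without overlap, as for 44.8% of all genes (-2.10, SE 0.429, adjusted p = 0.0069; 0.0209 by edgeR). Hey1 was at 10.3, 1.19 and 5.43 against 13.8 to 25.5, again without overlap (-1.74, SE 0.531, adjusted p = 0.0362, but 0.0857 by edgeR). Both were also called in the fit of both sexes (Sox17 -1.29, adjusted p = 0.0204; Hey1 -1.30, adjusted p = 0.0156), and neither in male hearts (Sox17 -0.58, adjusted p = 0.436; Hey1 -0.91, adjusted p = 0.285). The other 9 arterial genes tested in female hearts were not called, and the median of the 11 was -0.05.

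**Figure D4:**
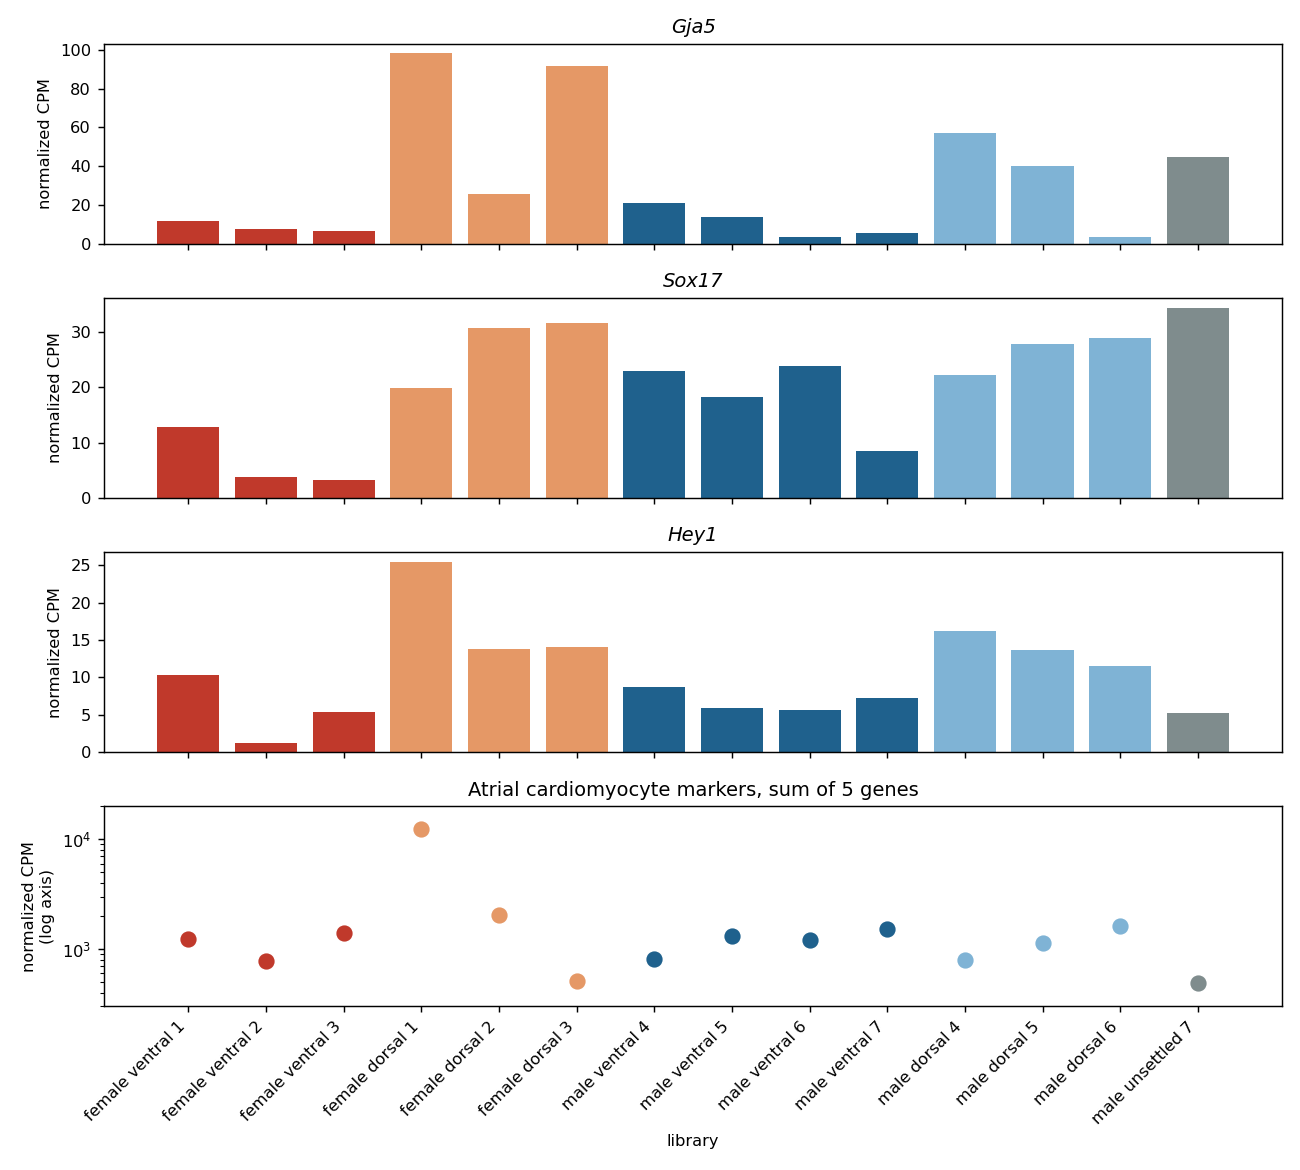
Normalized CPM of Gja5, Sox17 and Hey1 (bars from 0) and the sum of 5 atrial cardiomyocyte markers (points, log axis) in each of the 14 libraries. All 3 genes are higher in each female dorsal than in each female ventral library, and the atrial sum, to which Myl7 contributes most in many libraries, is highest in female dorsal 1 and low in female dorsal 3, where Nppa alone (116.5) is above the female ventral libraries.

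Of the 14 further pan-endothelial genes, 2 were called higher dorsally in female hearts and 0 higher ventrally, by edgeR as well. Over all genes tested in female hearts, limma called 13.3% higher dorsally and 14.5% higher ventrally. The 2 of 14 are thus near the share of the table as a whole. The 2 were the sialomucin gene Cd34 (-0.84, SE 0.2, adjusted p = 0.0137) and the transcription factor gene Sox18 (-1.09, SE 0.333, adjusted p = 0.0366), while 10 of the 14 changes lay above 0 with a median of 0.13. Of 5 capillary genes 1 was called, the fatty acid transporter gene Cd36 (-1.19, SE 0.265, adjusted p = 0.0102). Of 3 venous genes 1 was called in the opposite direction, Nrp2, a receptor of venous and lymphatic endothelium (1.10, SE 0.252, adjusted p = 0.0112). Of 3 endocardial genes 2 were called higher ventrally, Npr3 (1.79, SE 0.337, adjusted p = 0.00488) and Adgrg6 (2.34, SE 0.461, adjusted p = 0.00587). None of 5 tip cell or angiogenic genes was called by limma (0 by edgeR), and all 5 changes lay above 0. Of the 5, 1 had an unadjusted p under 0.05, against 40.5% of all genes tested. In male hearts 0 genes of these lists were called. An unadjusted p under 0.05 was found for 1 pan-endothelial, 1 arterial and 2 capillary genes, against 14% of all genes tested.

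Co-variation between the members was measured over all 14 libraries for 45 pairs, with permutation p-values (100000 resamples, two-sided) adjusted over the 45. By Pearson's r 11 pairs were past the threshold and by Spearman's rho 6, and 41 of the 45 r values were above 0. Most of this rested on male ventral 7. Without it 1 pair was past the threshold and 27 r values were above 0. Within the 8 male libraries 6 pairs were past it by r and 1 by rho. Within the 6 female libraries 0 pairs were past it by exact permutation, by either measure. So few libraries have too few orders for a single pair to pass after adjustment over the 45, so nothing is drawn from this 0.

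The pair that held was Emcn and Aplnr, with r = 0.972 and rho = 0.921 (both p = 1e-05, the smallest these permutations can give, adjusted p = 0.00045). Without male ventral 7 r was 0.908 (adjusted p = 0.00315), and without the 2 libraries farthest from the Emcn median it was 0.883. Within the 6 female libraries r was 0.787 and within the 8 male libraries 0.985. Pecam1 and Cdh5 had r = 0.938 (p = 0.00106, adjusted p = 0.00795) and rho = 0.662 (p = 0.0123, adjusted p = 0.0552), but r fell to 0.605 (adjusted p = 0.113) without male ventral 7 and to 0.501 without the 2 farthest libraries, so this relation rested on those libraries. Apln had negative r values with Gja4, Gja5 (-0.23) and Dll4 (-0.18), none past the threshold. This was not particular to arterial genes. Without male ventral 7 Apln was negative with every member but Nr2f2 (0.23), among them Pecam1 (-0.54) and Aplnr (-0.38). Within the female libraries Apln stood at -0.86 with Emcn and -0.73 with Aplnr, and only its r with Cdh5 was above 0 (0.02). Its r with Gja4 was -0.32 (p = 0.273, adjusted p = 0.396) and rho -0.53 (p = 0.0529, adjusted p = 0.159) over 14 libraries, -0.60 without the 2 farthest and -0.67 (adjusted p = 0.102) without male ventral 7, and -0.83 within the female and -0.45 within the male libraries. Libraries of one side, sex or pool share these, so the 14 are not fully independent.

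**Figure D5:**
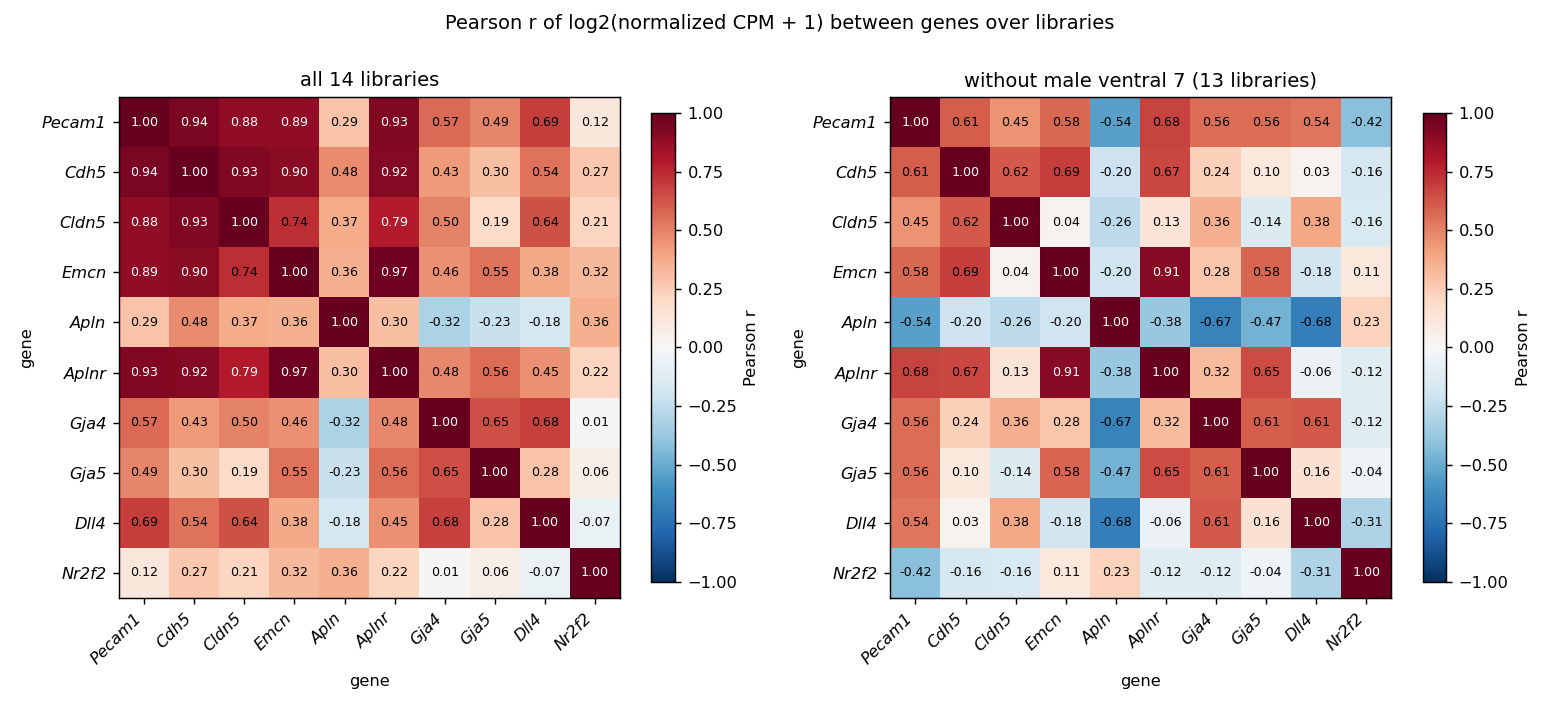
Pearson r of log2(normalized CPM + 1) between the 10 genes over all 14 libraries (left) and over the 13 libraries without male ventral 7 (right). Among Pecam1, Cdh5, Cldn5, Emcn and Aplnr the values on the left lie between 0.74 and 0.97, and on the right Emcn with Aplnr is at 0.91 while the others lie between 0.04 and 0.69. Apln is negative with Gja4, Gja5 and Dll4 in both, and on the right with every gene but Nr2f2.

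The 3 genes outside the members with the pattern most like each member were found by Pearson's r over the 14 libraries, among 14563 genes with a mean of at least 1, as a description. For Pecam1 they were S1pr1 (r = 0.968), Sparcl1 (0.958) and Mmrn2 (0.947), for Cdh5 Adgrf5 (0.971), Elk3 (0.956) and Kdr (0.952), and for Cldn5 Robo4 (0.952), Arhgef15 (0.948) and Kif26a (0.947). S1pr1, Adgrf5, Kdr, Robo4 and Mmrn2 are known from endothelium. For Emcn they were Cdh2 (0.959), Gimap1 (0.93) and Ptprb (0.919), and for Aplnr Gimap1 (0.957), Icam2 (0.952) and Cdh2 (0.951). These values include male ventral 7; without it the first gene of Pecam1 stood at 0.88, that of Cdh5 at 0.739, that of Cldn5 at 0.776, that of Emcn at 0.883 and that of Aplnr at 0.841. The arterial members had other neighbours. Gja5 was closest to 6430710C18Rik (0.921), Ero1lb (0.917) and Ercc6l (0.914), which stood at 0.915, 0.925 and 0.906 without male ventral 7. Gja4 was closest to Il15ra (0.87), Fancl (0.869) and Dlst (0.858), Dll4 to Ssu2 (0.831) and Stil (0.822), Apln to Fbxo46 (0.851), Mtdh (0.851) and Lrrc8a (0.811), and Nr2f2 to Herc2 (0.8287), Sept5 (0.795) and Ccdc24 (0.79).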

How the data were processed

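RNA from pools of 2 hearts was sequenced as single reads of 60 bases. According to the methods and the labels, the authors trimmed adapters with Cutadapt, quantified reads with RSEM on the GRCm38 transcriptome, normalized with limma and filtered on 1 CPM in 3 samples; the labels and the methods name different RSEM versions. The deposited signal is a normalized CPM, and 100% of its values were whole reads plus 0.5 over an effective library size (tolerance 0.02 reads). Libraries held 13.9 to 25.2 M reads, and the floors cover counting error only. The interval given for a change was computed from its limma SE, which measures the spread between libraries. Strand assignment is not given in the sources used here, and the kit does not mark strand.

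Regions and sexes were compared with limma 3.58.1 (lmFit, eBayes with trend, R 4.3.3) on log2(normalized CPM + 1), so low genes have compressed changes, over all genes that reached 1 in 3 or more of the libraries fitted, with Benjamini-Hochberg adjustment and calls under 0.05. The fit was also run on simulated counts that had no pool effect and no outlying library, unlike these data, so nothing is drawn from that run here. Signs are ventral minus dorsal and male minus female. Positions are from GENCODE M21 (GRCm38), and levels per kb use the union of its exons. Correlations were computed in Python 3.11.15 with numpy 2.4.6. The settings varied were the pseudocount (0.1), the filter (none, or a mean of 10 or more), the scaling (median of ratios), the test (edgeR 4.0.16, quasi-likelihood, on recovered reads, or eBayes without trend), removal of the GC and length trend, each library left out, the pool number as a block, and the library of unsettled region as dorsal or as ventral. Fits without male ventral 7 combined with the block or with that library, and correlations without male ventral 7, were added after seeing the data. Both sides of a number deviated from their group means together (r of 0.187, 0.169 and 0.27 for female pools 1 to 3, and 0.427, 0.175 and 0.351 for male pools 4 to 6), so the numbers were taken to pair them; the sources do not say what a number marks.

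The members and lists were chosen with earlier results of these data known. Named genes are the 10 members, in each further endothelial list at most the 2 called genes with the largest change in female hearts, the 3 genes most like each member (1 of them is not reported here), and genes of the marker lists where a library or a member's value turned on them. Robo4, Kdr and Tek and the single atrial markers were named after their values were seen.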

Additional observations from a re-analysis of the deposited data

Results flagged for a closer look

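Pecam1 in male ventral 7, at 12.4 normalized CPM, lay far below the other male ventral libraries (85.5, 88.3 and 98.4): the gap to the nearest was 0.85 of the range of the group, above Dixon's 95% critical value for 4 samples. The male ventral group alone was large enough for this check, which was made for 10 genes, and chance flags about 1 in 20 groups.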

How the results depend on the processing

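Over the alternatives, the Gja5 difference of female hearts was past the threshold throughout and no member was called in male hearts. The count of members called was 1 or 2 in female hearts when a library was left out, 0 to 2 in both sexes and 0 to 1 between the sexes, where Nr2f2 was past the threshold without female dorsal 2. Those fits called 15.4% to 27.5% of all genes in female hearts, 9.09% to 23.3% in both sexes and 8.3% to 11.9% between the sexes. In both sexes the count was 0 for eBayes without trend and for the unsettled library as ventral, 3 with the replicate block with or without male ventral 7, and 2 (Gja5 and Aplnr) without male ventral 7 with the unsettled library as dorsal. Of all genes, 16% were called without trend, 15.5% with the unsettled library as ventral and 14.9% in the last of these fits. The block called 14.2%, and 14.5% without male ventral 7. The 3 with the block are Gja5, Aplnr and Apln. The block changed no other call of a member. Pairs of members past the threshold, 11 in all, numbered 6 within male libraries, 1 without the 2 farthest libraries, 6 by rho and 1 without male ventral 7. They numbered 0 within female libraries, which were too few for a single pair to pass.

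Directions turned only for changes that were not called. In female hearts, leaving out a library gave -0.00504 to 0.263 for Cdh5, -0.139 to 0.861 for Cldn5, -0.286 to 0.0370 for Emcn, -1.15 to 0.0413 for Gja4 and -0.705 to 0.104 for Dll4, and removal of the GC and length trend gave 0.0628 for Emcn. In male hearts the range was -1.23 to 0.108 for Cldn5 and -0.0505 to 0.272 for Nr2f2. Cldn5 was at 0.108 with the block, with or without male ventral 7, and 0.0794 without male ventral 7 and with the unsettled library as dorsal, whereas Nr2f2 was at -0.0865 with that library as dorsal. In both sexes Cldn5 ranged from -0.539 to 0.179 over libraries left out, and was at 0.0313 by edgeR, 0.179 with the block, with or without male ventral 7, and 0.159 without male ventral 7 and with the unsettled library as dorsal. For the sex difference of the regional change, the ranges were -0.977 to 0.0420 for Pecam1, -0.495 to 0.462 for Apln and -1.30 to 0.288 for Gja4, and Apln was at 0.0263 by the median of ratios and 0.149 by edgeR. Between the sexes, leaving out a library gave -0.450 to 0.0373 for Pecam1, -0.485 to 0.0466 for Cdh5, -0.610 to 0.110 for Cldn5, -0.562 to 0.00514 for Emcn, -0.556 to 0.165 for Aplnr and -0.197 to 0.184 for Dll4, and edgeR gave 0.0278 for Aplnr. The cause of these turns was not tested.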

Other observations

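The library of unsettled region had the highest Aplnr (234.6 normalized CPM), Emcn (85.8) and Cdh5 (115.4) of the 14 libraries. Its Gja5 was 44.9, between the male dorsal values of 40.3 and 57.0 and above all 4 male ventral values, while its Gja4 (3.57) and Dll4 (1.56) were near the bottom of the male range. Its region was not inferred from these values.

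Further lists were compared by side in female hearts, where limma called 14.5% of all genes higher ventrally and 13.3% higher dorsally. Of 6 macrophage and leukocyte markers 4 were called higher ventrally, with sums of 129.8 to 267.1 normalized CPM ventrally and 46.0 to 81.1 dorsally. Of 4 platelet markers 1 was called, higher ventrally, with sums of 71.7 to 166.0 against 23.6 to 62.8. Of 4 erythroid markers tested 1 was called, higher dorsally (0 by edgeR), of 5 atrial markers 1 was called, higher dorsally, and of 10 ventricular cardiomyocyte markers 1 was called, higher ventrally (by edgeR 1 in each direction). The 1 conduction marker listed was not called.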
